A study of Mus musculus with 8 samples.

Results

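The departure from additivity asks, gene by gene, whether the effect of 2 agents given together equals the effects of each agent added up on the log2 scale. It was computed as the combination less anti-PD-1, minus JQ1 less vehicle, so that a departure of 0 means that the fold changes of JQ1 and of the antibody multiply, a positive value means a level above that product and a negative value a level below it. All 8 libraries of the series entered it, and 14085 of the 52459 gene symbols had enough counts to be tested. The libraries came from lung tumour nodules of mice engineered to develop lung cancer, on a mixed background, and all 4 groups are from this mouse model. The groups, with 2 libraries each, were anti-PD-1 antibody together with JQ1 (the combination), JQ1, anti-PD-1 antibody, and vehicle. The labels give no dose, time, age, Cre driver or count of animals per library, and do not state whether replicates were taken from separate mice. By their counts of Xist and of Y-linked genes, 1 library was from a female and 1 from a male mouse in the combination, in JQ1 and in anti-PD-1, so the replicates of these 3 groups came from different mice. Both vehicle libraries were male, and whether they came from separate mice is not stated, so the spread between them may be technical. The nodules are bulk tissue, in which fewer cells of a type and less RNA per cell cannot be told apart.

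JQ1 displaces the BET proteins, Brd2 and its relatives, from acetylated chromatin. BET proteins bring the elongation factor P-TEFb to promoters and enhancers, and strongly enhancer-driven genes such as Myc are known to be sensitive to their loss. The antibody blocks PD-1, an inhibitory receptor of activated T cells, and is known for restoring T cell activity against tumours. Which cells of the nodule each agent acted on was not tested, and a gene can depart from the sum of their effects in either direction.

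The combination libraries differed from the other 6 in more than their treatment. Total counts were 2719816 and 9034331 in the combination, 8977259 and 9789137 in JQ1, 12998173 and 10318833 in anti-PD-1, and 12615865 and 15224108 in vehicle. Genes of ribosomal RNA took 46.6% and 53.2% of the counts in the combination, 35.7% and 28.5% in JQ1, 24.02% and 24.7% in anti-PD-1, and 24.4% and 22.4% in vehicle. The share was itself not additive, since the combination mean was 16.8 percentage points above the sum of the single effects, and the share of protein-coding genes was 17.8 points below it (a double difference of -17.8). Expression values below are CPM, which are counts scaled to the library total and by TMM factors. The part of depth and of the ribosomal RNA share in the departures was not tested beyond a fit with the share as a term, which turned the sign of the median departure in 16 of the 39 gene lists examined. The slope of that term is set within groups, where the share had SDs of 4.67 (combination), 5.13 (JQ1), 0.51 (anti-PD-1) and 1.38 (vehicle) points. It thus rests mostly on the combination and JQ1 pairs, and other differences between the libraries of these pairs enter it. The labelled tissue carried its markers, named here after their values were seen, in every library: the transcription factor Nkx2-1 had 842 and 402 CPM in the combination, against 1043 and 1203 in JQ1, 1659 and 1560.5 in anti-PD-1 and 2124 and 1733 in vehicle, and the surfactant gene Sftpc had 2003 and 3254 CPM in the combination, against 1510.5 and 454 in JQ1, 1854 and 1597 in anti-PD-1 and 2383 and 1155 in vehicle.

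**Figure D1:**
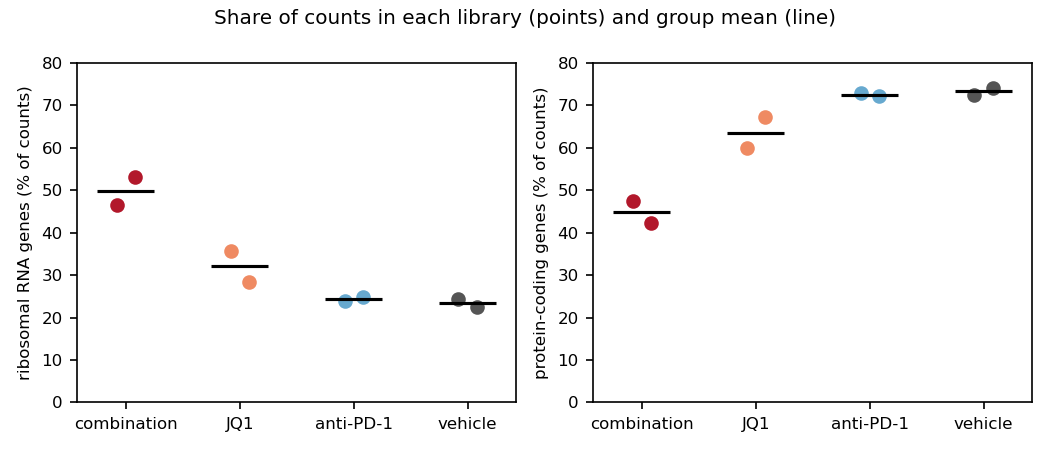
Share of all counts (%, axis from 0 to 80) on ribosomal RNA genes (left) and protein-coding genes (right) in each library, with the group mean as a line. Both combination libraries hold the largest ribosomal RNA shares, 46.6% and 53.2%, and the smallest protein-coding shares.

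No gene passed the test for a departure from additivity. The quasi-likelihood test of edgeR called 0 of 14085 genes (0%) at a Benjamini-Hochberg adjusted p under 0.05, and the smallest adjusted p was 0.745. An unadjusted p under 0.05 was reached by 881 genes (6.25%), of which 378 (2.68% of those tested) were above the sum and 503 (3.57%) below it. The limma tools voom and trend also called 0, with 850 and 845 genes at an unadjusted p under 0.05, and DESeq2 called 16 genes, 5 above and 11 below. The median departure over all tested genes was -0.01, with the 5th and 95th percentiles at -1.68 and 1.46 on the log2 scale. The departure kept 1 sign in all 16 ways of taking 1 library per group in 1390 genes above the sum (9.87%) and 1415 below it (10%). The genes below are therefore given as values, read beside these shares, and none is a called change. Values after ± are standard errors of the departure. An unadjusted p named below is from edgeR's fit of all 14085 genes, unless an alternative or a left-out library is named. There it is from that other fit, with its own set of tested genes. The adjusted p of every named gene was at least 0.745.

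The 10 genes above and the 9 below the sum described next were taken by their p, among those with a mean log2 CPM of at least 1 and 1 sign in all 16 library choices. All 19 also lay on the same side when the effects were added in CPM in place of log2, as did 13249 of the 14085 tested genes. JQ1 moved both libraries one way without the antibody and the other way with it in 340 of 13542 genes with more than 3 counts in every group (2.51%), and in 15 of the named genes. In 8 of the 19, both single effects lay within 0.5 of 0 on the log2 scale, so that the combination alone stood apart from the other 3 groups. Taking genes by p and by 1 sign favours those whose combination libraries stand apart from the rest. Such separation is described below for these genes and for list members, most of them also named by p. It is partly a product of that choice, and its share over all tested genes was not counted.

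The smallest p above the sum belonged to Prdx6 (chr1:161240112-161251219, GRCm38), a peroxiredoxin that reduces peroxidized phospholipids and takes part in surfactant turnover. Prdx6 had 498 and 766 CPM in the combination, against 108 and 86.9 in JQ1, 105 and 152 in anti-PD-1 and 102 and 104 in vehicle. Both combination libraries were higher than all 6 others, and neither agent alone moved the gene by as much as its replicates differed in the anti-PD-1 group. The product of the single effects put the combination at 121 CPM and the mean was 632 CPM, a departure of 2.38 ± 0.42. DESeq2 called it at an adjusted p of 0.00177. Near-identical processed copies of Prdx6 exist in the mouse genome, so its counts depend on how reads with several matches were treated, which the sources used here leave unstated.

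Of the other genes above the sum, Fmo2, Pgd and Cyb5b belong to redox or drug metabolism. Fmo2, the main flavin-containing monooxygenase of lung, had 215 and 159 CPM under both agents, 28.4 and 45.5 CPM under JQ1, 26.5 and 32.2 CPM under anti-PD-1 and 20.7 and 22.2 CPM under vehicle. The departure of Fmo2 was 1.88 ± 0.43. Its levels under each single agent were higher than in vehicle, yet their product gave 50.6 CPM and the combination averaged 187 CPM. Pgd, the second dehydrogenase of the oxidative pentose phosphate pathway, had 58.5 and 69.2 CPM in the combination libraries, 29.5 and 32.3 in the JQ1 libraries, 24.4 and 29.02 in the anti-PD-1 libraries and 42.8 and 38.8 in the vehicle libraries. Each agent alone was lower than vehicle and both agents together were higher, with no overlap between groups. Its departure was 1.66 ± 0.37. Cyb5b, the cytochrome b5 of the outer mitochondrial membrane, had 66.1 and 83.4 CPM in the combination, against 46.99 and 33.6 in JQ1, 21.3 and 23.5 in anti-PD-1 and 32.3 and 39.9 in vehicle. Cyb5b departed by 1.58 ± 0.41. Creg1, a secreted glycoprotein of the endosome and lysosome pathway, had 63.6 and 41.2 CPM under both agents, 9.02 and 17.96 CPM under JQ1, 6.92 and 7.04 CPM under anti-PD-1 and 8.63 and 8.15 CPM under vehicle. The departure of Creg1 was 2.21 ± 0.54. In these 3 genes and in Creg1 the combination libraries were above every other library.

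Trim6, a ubiquitin ligase, had 15.6 and 11.4 CPM in the combination, against 5.66 and 6.102 in JQ1, 1.47 and 1.88 in anti-PD-1 and 5.19 and 5.91 in vehicle. The antibody alone was lower than vehicle and the combination higher, and the departure was 2.91 ± 0.55. Atp2c2, a calcium and manganese pump of the secretory pathway, had the same order, with 24.8 and 11.4 CPM in the combination libraries, 9.65 and 6.28 in the JQ1 libraries, 1.397 and 0.845 in the anti-PD-1 libraries and 4.05 and 4.13 in the vehicle libraries. Atp2c2 departed by 2.99 ± 0.69. Ttc38 had 26.5 and 28.5 CPM in the combination, against 8.81 and 7.06 in JQ1, 4.75 and 6.57 in anti-PD-1 and 12.6 and 6.25 in vehicle. The departure of Ttc38 was 2.53 ± 0.58. The combination did not overlap the other groups in these 3 genes, whereas in Fetub, which encodes a secreted protease inhibitor, it did. Fetub had 4.21 and 11.5 CPM under both agents, 2.62 and 3.75 CPM under JQ1, 1.61 and 1.78 CPM under anti-PD-1 and 4.96 and 6.31 CPM under vehicle, so combination replicate 1 lay below both vehicle libraries, and its departure of 3.09 ± 0.72 came from low values under each agent alone.

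**Figure D2:**
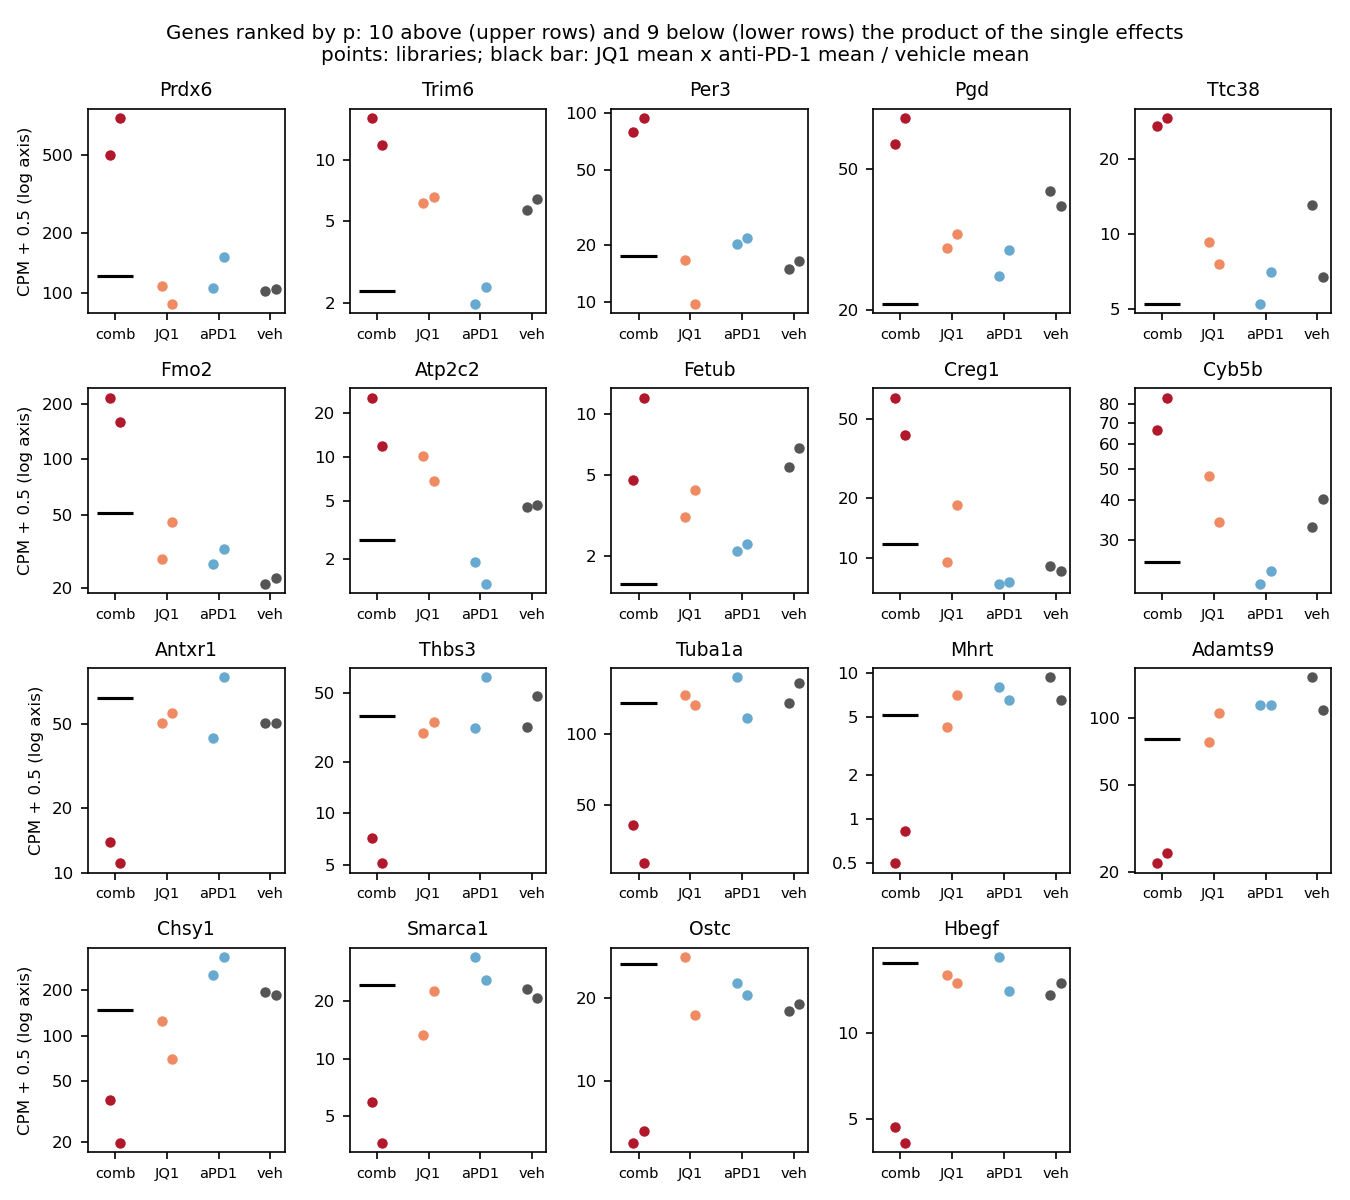
Expression of the 19 ranked genes in CPM plus 0.5 (log axes, a scale per gene), 2 points per group for the combination (comb), JQ1, anti-PD-1 (aPD1) and vehicle (veh). The black bar at the combination is the product of the single effects, and both combination points lie above it in the upper rows and below it in the lower rows. For Prdx6 the bar is at 121 CPM and the points at 498 and 766 CPM.

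Below the sum, several of the genes encode the extracellular matrix, its enzymes or its receptors. Antxr1 (chr6:87133853-87335821), a collagen-binding receptor also known as tumour endothelial marker TEM8, had 13.5 and 10.5 CPM in the combination, against 49.8 and 55.3 in JQ1, 42.1 and 81.8 in anti-PD-1 and 49.8 and 49.8 in vehicle. JQ1 and vehicle were alike within their spread and the combination lay below every other library, for a departure of -2.46 ± 0.49. Thbs3, a thrombospondin of the matrix, had 6.73 and 4.61 CPM under both agents, 29.1 and 33.6 CPM under JQ1, 30.7 and 61.4 CPM under anti-PD-1 and 31.3 and 47.5 CPM under vehicle. Thbs3 departed by -2.73 ± 0.57. Adamts9, a secreted protease that cleaves proteoglycans, had 21.5 and 23.9 CPM in the combination libraries, 77.5 and 105 in the JQ1 libraries, 115 and 115 in the anti-PD-1 libraries and 153 and 108 in the vehicle libraries, at -1.82 ± 0.40. Chsy1, which polymerizes chondroitin sulfate, had 37.5 and 19.1 CPM in the combination, against 125 and 69.1 in JQ1, 251 and 327 in anti-PD-1 and 194 and 185 in vehicle, at -2.41 ± 0.53. The JQ1 libraries were both below the vehicle libraries for Adamts9 and Chsy1, and the combination was below every other library in all 4 genes.

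The remaining genes of this rank were of several functions. Tuba1a, an alpha-tubulin, had 40.8 and 27.9 CPM in the combination, against 145 and 132 in JQ1, 172 and 116 in anti-PD-1 and 134 and 163 in vehicle. The departure of Tuba1a was -1.98 ± 0.42. Tubb5, a beta-tubulin named here because DESeq2 called it and chosen after its values were seen, had 174 and 288 CPM in the combination libraries, 874 and 1096 in the JQ1 libraries, 1339 and 912 in the anti-PD-1 libraries and 1146 and 1348 in the vehicle libraries. Tubb5 departed by -1.94 ± 0.45. Tubulin genes are close paralogs, so reads may be split between them. Smarca1, a chromatin remodelling ATPase of the ISWI family, had 5.47 and 3.13 CPM under both agents, 12.7 and 21.9 CPM under JQ1, 33.2 and 25.2 CPM under anti-PD-1 and 22.4 and 20.2 CPM under vehicle. The departure of Smarca1 was -2.54 ± 0.56. Ostc, a subunit of the oligosaccharyltransferase that N-glycosylates proteins, had 5.47 and 6.098 CPM in the combination, against 27.5 and 16.7 in JQ1, 22.1 and 20 in anti-PD-1 and 17.3 and 18.5 in vehicle. Ostc departed by -2.15 ± 0.49. Hbegf, a ligand of the EGF receptor, had 4.21 and 3.63 CPM under both agents, 15.3 and 14.4 CPM under JQ1, 17.8 and 13.4 CPM under anti-PD-1 and 13.1 and 14.3 CPM under vehicle, at -2.13 ± 0.49. Every combination library was below every other library in these 5 genes. Mhrt, a long noncoding RNA transcribed from the cardiac myosin locus, had 0 and 2 counts in the combination, 36 and 76 in JQ1, 108 and 64 in anti-PD-1 and 116 and 106 in vehicle, and since it overlaps Myh7 on the other strand and the use of strand in counting is not given, its reads and those of Myh7 cannot be told apart.

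With a ribosomal RNA term, all 19 kept their sign, but Prdx6 came to 1.25, Per3 to 1.21, Cyb5b to 0.73, Ttc38 to 1.63 and Smarca1 to -0.67, while Creg1 came to 4.13, Fmo2 to 3.21, Ostc to -3.25 and Mhrt to -3.16. The part of the share in these values was not tested further.

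NRF2 and its targets were the list with the largest fraction of members above the sum at an unadjusted p under 0.05. By sign alone 19 of 24 tested members were above it, and other lists had larger fractions, such as 15 of 17 type I interferon response genes. NRF2 (gene Nfe2l2) is the transcription factor that, once released from its inhibitor Keap1, activates glutathione, thioredoxin and NADPH-producing genes through antioxidant response elements. Of 24 tested members, 9 had an unadjusted p under 0.05 above the sum and 0 below it, against 2.68% and 3.57% of all genes. In 13 members the departure was positive in all 16 library choices and in 1 it was negative, against 9.87% and 10% of all genes. The median departure of the members was 0.88, against -0.01 over all genes. The list median in each library, as log2 less the vehicle mean, was 0.82 and 1.21 in the combination, 0.21 and 0.03 in JQ1, -0.31 and -0.09 in anti-PD-1 and 0.08 and -0.08 in vehicle. Both combination libraries were above all others, and the 4 single-agent libraries ran from -0.31 to 0.21.

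The 3 members that regenerate NADPH by the pentose phosphate pathway or recycle its sugars and stood above the sum were Pgd, described above, G6pdx, the rate-limiting enzyme that opens the pathway, and Tkt, the transketolase that returns pentoses to glycolysis. G6pdx had 48.8 and 33.5 CPM in the combination, against 20.2 and 20.4 in JQ1, 11.9 and 12.02 in anti-PD-1 and 15.1 and 13.2 in vehicle. The departure of G6pdx was 1.25 ± 0.43. Tkt had 74.1 and 149 CPM under both agents, 54.5 and 51.3 CPM under JQ1, 29.4 and 33.5 CPM under anti-PD-1 and 51.9 and 35.3 CPM under vehicle. Tkt departed by 1.55 ± 0.49. In both genes the lower combination library was above every other library. Taldo1, the transaldolase of the same pathway, had a departure of 0.42 ± 0.52 and did not stand apart.

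The genes of glutathione and thiol chemistry were mixed. Slc7a11, which imports the cystine used for glutathione and is shared with the ATF4 list, had 213 and 63.3 CPM in the combination, against 17.6 and 28.9 in JQ1, 19.3 and 28.1 in anti-PD-1 and 25.5 and 25.2 in vehicle. The departure of Slc7a11 was 2.66 ± 0.72. Gsta3, a glutathione transferase, had 43.8 and 24.2 CPM in the combination libraries, 15.3 and 11.9 in the JQ1 libraries, 3.42 and 3.66 in the anti-PD-1 libraries and 3.97 and 7.29 in the vehicle libraries. Gsta3 departed by 1.98 ± 0.59. JQ1 alone was above vehicle for Gsta3 and both combination libraries were higher again. Srxn1, the sulfiredoxin that repairs oxidized peroxiredoxins, had 18.9 and 12.9 CPM under both agents, 5.45 and 10.3 CPM under JQ1, 1.89 and 3.38 CPM under anti-PD-1 and 4.73 and 4.07 CPM under vehicle. The departure of Srxn1 was 1.74 ± 0.65. By contrast the subunits of glutamate-cysteine ligase, Gclc and Gclm, had departures of 0.59 ± 0.40 and 0.08 ± 0.37, and Txnrd1, the cytosolic thioredoxin reductase, had 0.92 ± 0.43. Glutathione transferases have close paralogs whose reads may be split.

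Aldh3a1, an aldehyde dehydrogenase shared with the airway list, had 27.4 and 28.2 CPM in the combination, against 6.71 and 2.18 in JQ1, 4.47 and 1.97 in anti-PD-1 and 2.75 and 5.68 in vehicle. Aldh3a1 departed by 3.03 ± 0.84. Osgin1, an oxidative stress response gene, had 39.1 and 31.8 CPM under both agents, 9.02 and 11.9 CPM under JQ1, 6.57 and 16.2 CPM under anti-PD-1 and 11.9 and 11.4 CPM under vehicle. The departure of Osgin1 was 1.796 ± 0.59. Nqo1, the quinone reductase often used as the NRF2 readout, had 2.53 and 7.91 CPM in the combination libraries, 0.629 and 0.959 in the JQ1 libraries, 0.559 and 1.13 in the anti-PD-1 libraries and 1.99 and 0.631 in the vehicle libraries. Nqo1 departed by 3.38 ± 1.10. The combination was above every other library for all 3. Its 2 libraries differed severalfold for Nqo1, where replicate 1 rests on 6 counts. Of these 9 genes, G6pdx, Tkt, Srxn1, Osgin1 and Nqo1 were named after their values were seen. The regulators themselves did not follow their targets: Nfe2l2 had a departure of -0.85 ± 0.42 and Keap1 of -0.14 ± 0.54.

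The list kept a positive median under every alternative run, from 0.23 in libraries thinned to the depth of the shallowest to 1.19 without anti-PD-1 replicate 2. Without vehicle replicate 1, 5 members reached an unadjusted p under 0.05 above the sum in place of 9, and with a ribosomal RNA term 3 did, with a median of 0.71. The core of the antioxidant response element, searched as TGACNNNGC on both strands in the 250 bases before to 50 after a start, was found in 9 of the 20 members with a RefSeq promoter (45%: Nfe2l2, Gclm, Txnrd1, Srxn1, Gsta3, G6pdx, Pgd, Me1 and Prdx1), against 16.9% of 9963 tested genes. Of these 9, Gsta3, Srxn1, Pgd, G6pdx and Txnrd1 had departures of 1.98, 1.74, 1.66, 1.25 and 0.92. Gclm, Me1, Prdx1 and Nfe2l2 had 0.08, -0.11, -0.29 and -0.85, so a match did not go with a departure above the sum in all. The promoter of Gsta3 is shown because its departure was the largest of the 9. It is GRCm38.p6 chr1:21240335-21240634, plus strand, from RefSeq, with the core in capitals, its first base at -121 from the start. A match is a description of the letters and not a bound site.

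Gsta3: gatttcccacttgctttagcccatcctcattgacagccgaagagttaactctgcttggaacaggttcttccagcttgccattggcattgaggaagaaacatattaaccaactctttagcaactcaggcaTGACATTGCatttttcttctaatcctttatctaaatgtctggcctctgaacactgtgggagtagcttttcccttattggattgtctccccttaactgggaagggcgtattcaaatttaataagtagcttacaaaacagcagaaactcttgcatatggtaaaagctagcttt

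**Figure D3:**
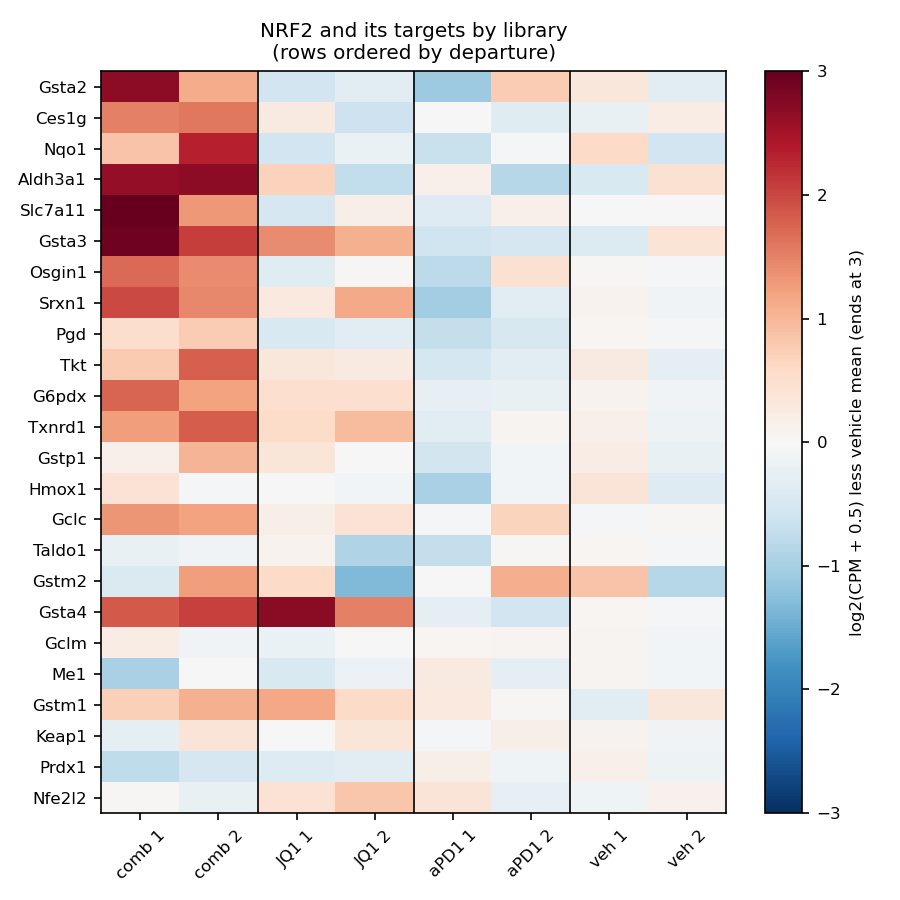
Heat map of the 24 tested NRF2 list members in each library, as log2(CPM + 0.5) less the vehicle mean, with rows ordered by departure and the colour scale ending at 3. The 2 combination columns at the left are red in the upper rows, from Gsta2 down to Txnrd1, while Nfe2l2 in the bottom row is near 0 in them.

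Genes of the circadian clock were another list with several members above the sum. The clock runs on the activators Arntl and Clock, which drive Per and Cry repressors through E-boxes, and on Rev-erb and PAR-bZIP factors (Dbp, Tef, Hlf) that form interlocked loops. Of 19 tested members 4 had an unadjusted p under 0.05 above the sum and 0 below, against 2.68% and 3.57% of all genes, and the median departure was 1.04, the highest of the lists examined. The list medians were 0.66 and 1.31 in the combination, -0.04 and -0.18 in JQ1, 0.44 and 0.33 in anti-PD-1 and -0.01 and 0.01 in vehicle. Antibody libraries were slightly above vehicle, JQ1 libraries at or below it, and combination libraries above both.

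Per3 (chr4:151003652-151044665), a period repressor, had 79.5 and 93.9 CPM in the combination, against 16.2 and 9.24 in JQ1, 19.7 and 21.2 in anti-PD-1 and 14.5 and 15.95 in vehicle. Both combination libraries were above all others, at a mean of 86.7 CPM against a product of 17.1 CPM, and the departure was 2.35 ± 0.45. Per2, its paralog, had 65.2 and 61.96 CPM under both agents, 20.98 and 22.9 CPM under JQ1, 27.9 and 25.3 CPM under anti-PD-1 and 14.6 and 24.7 CPM under vehicle. The departure of Per2 was 1.097 ± 0.44. Tef, a PAR-bZIP output factor, had 148 and 128 CPM in the combination libraries, 39.1 and 25.9 in the JQ1 libraries, 55.4 and 63.9 in the anti-PD-1 libraries and 35.8 and 41.3 in the vehicle libraries. Tef departed by 1.45 ± 0.40. For Nr1d2, which encodes the repressor Rev-erb beta, the values were 125 and 106 CPM in the combination, against 55.6 and 27.8 in JQ1, 93.4 and 77.3 in anti-PD-1 and 68.9 and 57.9 in vehicle. The departure of Nr1d2 was 1.04 ± 0.47. The groups did not overlap between the combination and the rest in any of these 4. Ciart, Cry2, Nr1d1 and Per1 were above the sum by 2.28 ± 1.06, 1.42 ± 0.65, 2.02 ± 1.23 and 1.24 ± 0.69 without reaching that p, whereas the activators Arntl and Clock had departures of 0.02 ± 0.56 and 0.24 ± 0.38. The PAR-bZIP gene Hlf was the lowest member at -1.94 ± 1.15.

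The clock depends on the hour at which tissue is taken, and the labels give no hour, so hour and group cannot be told apart. With a ribosomal RNA term the median of the list was -0.35 and 0 members were above the sum at that p, and the sex of the mouse as a term gave 0.61. With 1 library left out at a time, the median lay between 0.39 (without combination replicate 2) and 1.16 (without anti-PD-1 replicate 1), and the count of members above the sum at that p between 2 (for example without anti-PD-1 replicate 1) and 7 (without combination replicate 1). The median was also 0.62 without JQ1 replicate 2 and 0.66 without vehicle replicate 2, and 2 members reached that p without the second library of either the anti-PD-1 or the vehicle group. The E-box CACGTG was found in 5 of 16 clock promoters (31.25%: Per1, Cry1, Tef, Bhlhe41 and Ciart), against 11.6% of 9963 tested genes. The D-box TTATGTAA, the site of PAR-bZIP factors, was found in Per3 alone of the 16 (6.25%), against 0.652%. Both promoters are printed because Per3 and Tef had the smallest p-values of the list. Per3 is GRCm38.p6 chr4:151044616-151044915, minus strand, with 2 D-boxes in capitals. Tef is chr15:81802423-81802722, plus strand, with 1 E-box in capitals.

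Per3: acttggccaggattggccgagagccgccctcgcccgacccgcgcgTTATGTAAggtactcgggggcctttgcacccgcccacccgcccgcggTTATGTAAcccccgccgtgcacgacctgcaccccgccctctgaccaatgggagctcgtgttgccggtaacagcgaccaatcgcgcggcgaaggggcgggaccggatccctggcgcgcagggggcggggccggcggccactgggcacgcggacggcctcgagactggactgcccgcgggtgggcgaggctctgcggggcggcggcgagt

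Tef: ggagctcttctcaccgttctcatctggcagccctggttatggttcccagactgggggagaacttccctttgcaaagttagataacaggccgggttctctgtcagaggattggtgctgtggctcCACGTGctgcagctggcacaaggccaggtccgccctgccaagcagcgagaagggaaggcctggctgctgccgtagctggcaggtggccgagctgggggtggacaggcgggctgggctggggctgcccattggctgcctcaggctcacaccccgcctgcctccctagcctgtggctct

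The glucocorticoid list, of genes that the ligand-bound receptor Nr3c1 is known to activate, overlaps the clock list in Per1. Of 21 tested members 1 had an unadjusted p under 0.05 above the sum and 0 below, and the median departure was 0.84. That member was Klf15, a metabolic transcription factor, with 11.4 and 54.4 CPM in the combination, against 1.68 and 1.13 in JQ1, 4.75 and 1.88 in anti-PD-1 and 2.37 and 1.38 in vehicle. Klf15 departed by 3.73 ± 1.05. Its combination libraries were both above the other 6 but differed severalfold. The list medians showed the same split, with 0.84 and 2.15 in the combination, 0.01 and 0.48 in JQ1, 0.59 and 0.25 in anti-PD-1 and 0.08 and -0.08 in vehicle. The medians of the departure within each combination library were 0.14 and 1.36 for replicates 1 and 2, so the value rests on replicate 2, and without it the median of the list was -0.09. With a ribosomal RNA term, Klf15 had a departure of -0.28 and the list -0.27.

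Sterol and fatty acid synthesis genes, driven by the SREBP factors, lay above the sum in 24 of 29 tested members, beside 6932 of all 14085 genes. Of these, 4 had an unadjusted p under 0.05 above the sum and 0 below, and the median was 0.55. Insig1, which holds SREBP in the endoplasmic reticulum and is itself a target, had 13.5 and 26.5 CPM in the combination, against 8.81 and 4.62 in JQ1, 5.798 and 4.04 in anti-PD-1 and 4.89 and 6.598 in vehicle. The departure of Insig1 was 1.82 ± 0.66. Msmo1, a sterol methyl oxidase, had 10.9 and 12.03 CPM under both agents, 7.97 and 5.49 CPM under JQ1, 2.79 and 1.502 CPM under anti-PD-1 and 3.36 and 3.67 CPM under vehicle. Msmo1 departed by 1.47 ± 0.61. Mvk, the mevalonate kinase, had 3.79 and 3.296 CPM in the combination libraries, 2.202 and 1.13 in the JQ1 libraries, 0.768 and 0.751 in the anti-PD-1 libraries and 1.15 and 2.24 in the vehicle libraries, and Hsd17b7, a reductase of the later pathway, had 3.37 and 6.098 CPM in the combination, against 1.68 and 2.88 in JQ1, 1.12 and 0.563 in anti-PD-1 and 1.53 and 1.72 in vehicle. Their departures were 2.23 ± 0.88 and 2.01 ± 0.82. Combination libraries were above both vehicle libraries in all 4 genes, and antibody libraries were below both in 3, overlapping them for Insig1. The list median was -0.32 with a ribosomal RNA term. The median was 0.23 without combination replicate 2 and 0.74 without combination replicate 1, the extremes over the 8 libraries left out in turn, with 0 members above the sum at that p without vehicle replicate 2 and 8 without combination replicate 1.

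**Figure D4:**
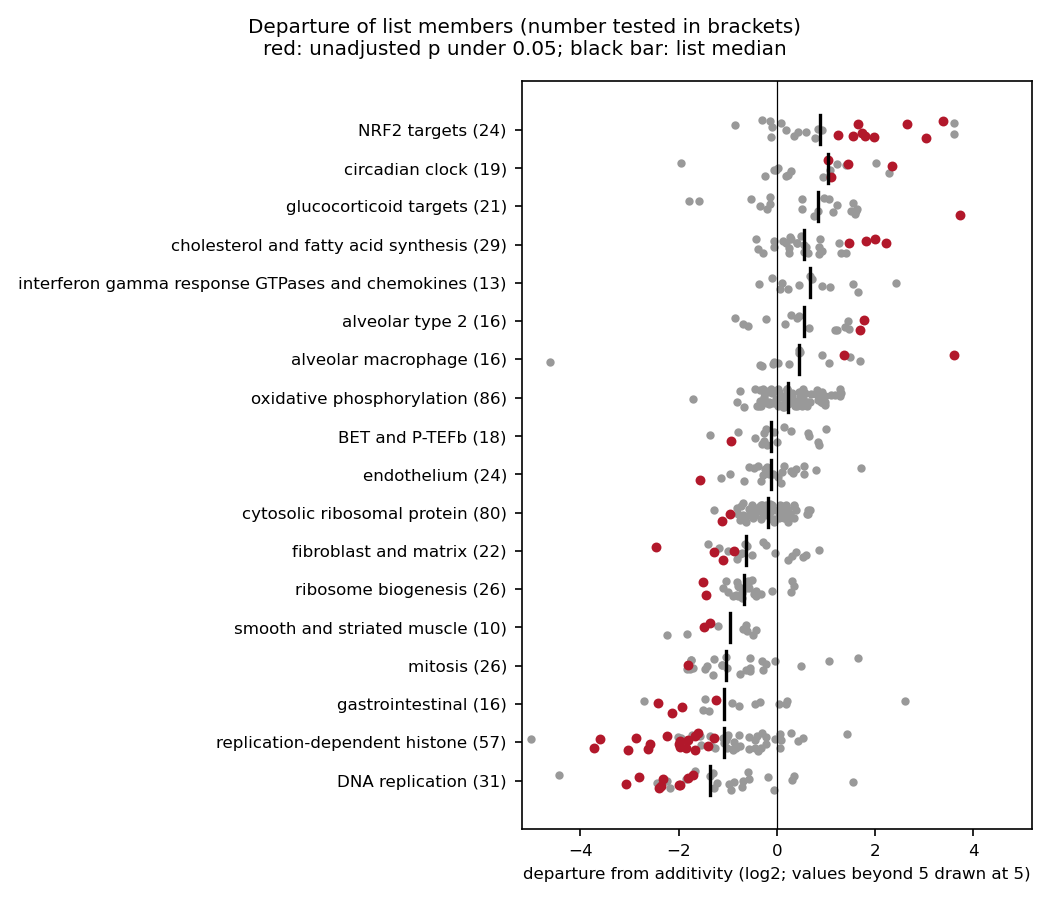
Departure of each tested member (log2, points) for 18 lists, with members at an unadjusted p under 0.05 in red and the list median as a black bar; values beyond 5 are drawn at 5. The NRF2, clock and sterol lists sit to the right of 0, with medians of 0.88, 1.04 and 0.55, and the DNA replication and histone lists to the left, with medians of -1.36 and -1.08.

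Genes of DNA replication lay below the sum. These encode the MCM helicase, polymerases, clamp loaders and nucleotide-making enzymes that E2F factors switch on for S phase. Of 31 tested members 9 had an unadjusted p under 0.05 below the sum and 0 above, against 3.57% and 2.68% of all genes, 12 were negative in all 16 library choices, against 10%, and 28 of 31 had a negative value. The median departure was -1.36, and the list medians were -0.66 and -1.12 in the combination, 0.55 and -0.28 in JQ1, 0.19 and -0.35 in anti-PD-1 and -0.16 and 0.16 in vehicle. JQ1 replicate 1 stood above vehicle and JQ1 replicate 2 near it, while both combination libraries were below every other library.

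Mcm2, a helicase subunit, had 3.79 and 4.61 CPM in the combination, against 42.6 and 17.7 in JQ1, 23.6 and 20.2 in anti-PD-1 and 28.9 and 28.97 in vehicle. The combination libraries were below all others, at a mean of 4.201 CPM against a product of 22.8 CPM. The departure of Mcm2 was -2.41 ± 0.59. Pole, the catalytic subunit of the leading strand polymerase, had 2.95 and 4.78 CPM in the combination libraries, 15.2 and 15.1 in the JQ1 libraries, 14.04 and 7.23 in the anti-PD-1 libraries and 8.93 and 11.1 in the vehicle libraries. Pole departed by -1.996 ± 0.60. In Pole, JQ1 alone was above vehicle and the combination below it. Rrm2, the regulated subunit of ribonucleotide reductase, had 0 and 8 counts in the combination, 148 and 44 in JQ1, 68 and 61 in anti-PD-1 and 71 and 143 in vehicle. Rrm2 departed by -3.07 ± 1.13. A further 5 members, named after their values were seen, were Mcm3, Mcm4, Rfc4 and Pold1, with departures of -2.37 ± 0.90, -1.698 ± 0.68, -1.97 ± 0.79 and -1.801 ± 0.77, and E2f1, with 0 and 2 counts in the combination, 16 and 23 in JQ1, 40 and 18 in anti-PD-1 and 34 and 42 in vehicle. Pcna, the sliding clamp, had a departure of -0.68 ± 0.90. The median stayed negative under all alternatives (-2.07 with a ribosomal RNA term), and without JQ1 replicate 1 it was -0.92 with 4 members at that p, without JQ1 replicate 2 it was -1.90 with 13, and 3 members reached it without vehicle replicate 1 and 4 without anti-PD-1 replicate 1.

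Replication-dependent histone genes, which are expressed in S phase and make mRNAs that end in a stem-loop in place of a poly(A) tail, lay below the sum as well. Of 57 tested members 17 had an unadjusted p under 0.05 below the sum and 0 above, 25 were negative in all 16 choices, and the median departure was -1.08. The list medians were -2.36 and -1.92 in the combination, -0.68 and -1.40 in JQ1, -0.10 and -0.28 in anti-PD-1 and -0.10 and 0.10 in vehicle. JQ1 alone was already below the antibody and vehicle libraries, and the combination was lower again. Hist1h2bm had 6.31 and 6.43 CPM in the combination, against 43.2 and 22.8 in JQ1, 94.7 and 57.8 in anti-PD-1 and 87.3 and 112 in vehicle, a mean of 6.37 CPM against a product of 25.2 CPM. The departure of Hist1h2bm was -1.98 ± 0.54. Hist1h2bl, a close paralog whose reads cannot be fully told from it, had 4.21 and 5.27 CPM under both agents, 30 and 18.9 CPM under JQ1, 66.2 and 40 CPM under anti-PD-1 and 55.8 and 80.8 CPM under vehicle. Hist1h2bl departed by -1.97 ± 0.54. Hist1h2ae had 0 and 1 counts in the combination, 34 and 29 in JQ1, 66 and 37 in anti-PD-1 and 95 and 129 in vehicle, and Hist1h2ag had 0 and 2 counts in the combination, 46 and 39 in JQ1, 106 and 41 in anti-PD-1 and 96 and 149 in vehicle. Against the sum in CPM, which was -0.239 for Hist1h2ae, that gene lay above and not below. The median with a ribosomal RNA term was -2.87 with 26 members below at that p. A median below 0 held in all alternatives, at -0.60 without JQ1 replicate 1, with 27 members at that p without JQ1 replicate 2 and 11 without vehicle replicate 1. Per the labels, the molecule was polyA RNA and the libraries were made by probe capture.

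Genes of mitosis had 1 of 26 tested members at an unadjusted p under 0.05 below the sum and 0 above, with a median of -1.03. That member was Kif23, a kinesin of cytokinesis, with 6.73 and 4.94 CPM in the combination, against 19.9 and 23.7 in JQ1, 43.03 and 12.8 in anti-PD-1 and 31.6 and 29.3 in vehicle. The departure of Kif23 was -1.81 ± 0.71. The anti-PD-1 libraries differed most, with list medians of 0.57 and -0.67, and without anti-PD-1 replicate 1 the median departure was 0.33. It was -1.71 without combination replicate 2, with 4 members at that p, and -2.30 with a ribosomal RNA term. Ribosome biogenesis genes, which process ribosomal RNA in the nucleolus, had 2 of 26 members below the sum at that p and 0 above, a median of -0.67, and 8 negative in all 16 choices. Their medians were close between replicates, with -0.53 and -0.56 in the combination, 0.29 and 0.06 in JQ1, -0.16 and -0.08 in anti-PD-1 and -0.09 and 0.09 in vehicle. Nop56, a core protein of box C/D particles, had 25.3 and 11.4 CPM in the combination libraries, 78.7 and 51.6 in the JQ1 libraries, 55.1 and 53.4 in the anti-PD-1 libraries and 53.4 and 93.4 in the vehicle libraries. Nop56 departed by -1.44 ± 0.58. Rrp9, of the U3 particle, had 1.68 and 3.63 CPM under both agents, 9.65 and 9.76 CPM under JQ1, 12.7 and 8.73 CPM under anti-PD-1 and 10.3 and 15.2 CPM under vehicle. The departure of Rrp9 was -1.51 ± 0.61. Combination libraries were below all others for both. Cytosolic ribosomal protein genes had a median of -0.18, with 2 of 80 below the sum at that p (among them Rpl29 at -1.11 ± 0.42), and oxidative phosphorylation genes a median of 0.22, with 0 of 86 at that p in either direction. Both lists moved with the combination libraries. Without combination replicate 1 the medians were 0.11 and 0.52, with 11 oxidative phosphorylation members above at that p, and without replicate 2 they were -0.57, with 11 ribosomal protein members below, and -0.24. The ribosomal RNA term took them to -1.40 with 25 below and -1.18 with 10 below.

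**Figure D5:**
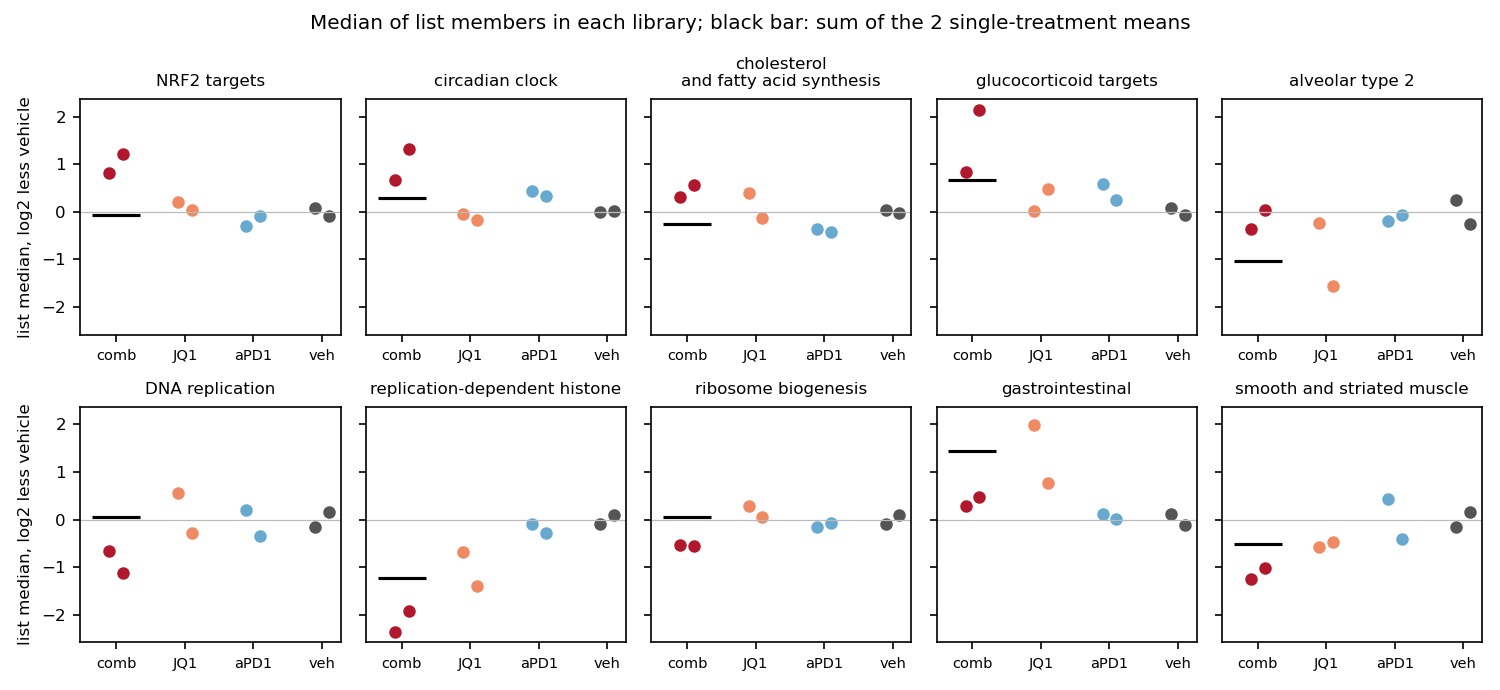
Median of the tested members of 10 lists in each library (log2 less the vehicle mean), 2 points per group for the combination (comb), JQ1, anti-PD-1 (aPD1) and vehicle (veh), with the sum of the single-agent means as a black bar. Both combination points lie above the bar for the NRF2 targets, at 0.82 and 1.21, and below it for DNA replication, at -0.66 and -1.12.

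Markers of the cell types in a lung nodule were examined in the same way. Alveolar type 2 markers, of the surfactant-making epithelium from which such tumours are known to arise, had 2 of 16 tested members above the sum at an unadjusted p under 0.05 and 0 below, with a median of 0.55. Sftpd, a surfactant collectin, had 242 and 419 CPM in the combination, against 130.4 and 101 in JQ1, 161 and 129 in anti-PD-1 and 218 and 131 in vehicle. Sftpd departed by 1.78 ± 0.49. Hc, complement component C5, had 25.7 and 77.5 CPM under both agents, 17.8 and 8.98 CPM under JQ1, 75.9 and 67.99 CPM under anti-PD-1 and 46.7 and 72.1 CPM under vehicle. The departure of Hc was 1.69 ± 0.71. Sftpc had a departure of 1.46 ± 0.78, and Nkx2-1 was at -0.59 ± 0.47. The list's summed level was 9505 and 11766 CPM in the combination, 8643 and 6642 in JQ1, 8677 and 10210.1 in anti-PD-1 and 12668 and 8698 in vehicle, so the groups overlapped. Its median was -1.35 with a ribosomal RNA term. Over the 8 libraries left out in turn, the median ranged from 0.21 without vehicle replicate 1 to 1.69 without JQ1 replicate 1 and the members above the sum at that p from 1 without JQ1 replicate 2 to 9 without JQ1 replicate 1.

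Alveolar macrophage markers had 2 of 16 members above the sum at that p and 0 below, with a median of 0.46 that came to -0.71 without combination replicate 2. Chil3, a chitinase-like protein of these cells, had 73.7 and 184 CPM in the combination, against 83.8 and 83.2 in JQ1, 44.9 and 41.4 in anti-PD-1 and 59.3 and 83.6 in vehicle. Chil3 departed by 1.36 ± 0.54. Marco, a scavenger receptor, had 2 and 18 counts in the combination, 2 and 13 in JQ1, 10 and 2 in anti-PD-1 and 18 and 42 in vehicle. The departure of Marco was 3.603 ± 1.33. Markers of tumour and interstitial macrophages were mostly below the sum, with 14 of 18 tested members negative, a median of -0.68, and 1 member above and 1 below at that p. The member above was Ly6c2, at 5.05 and 64.1 CPM under both agents, 3.88 and 5.404 CPM under JQ1, 3.21 and 13.9 CPM under anti-PD-1 and 18.2 and 9.87 CPM under vehicle, and the member below was Csf1r, the receptor for CSF1, at 10.5 and 13.5 CPM in the combination, against 19.4 and 12.7 in JQ1, 34.02 and 24.98 in anti-PD-1 and 16.7 and 19.97 in vehicle. Their departures were 3.65 ± 1.51 and -1.09 ± 0.48, and for Ly6c2 the combination libraries straddled vehicle. The airway list had 2 of 15 members above the sum at that p, Aldh3a1 and Bpifa1, and a median of -0.13. Bpifa1, a secreted airway protein, had 54 and 0 counts in the combination, 20 and 23 in JQ1, 2 and 0 in anti-PD-1 and 88 and 29 in vehicle, so that both the combination and the antibody group held a library at 0.

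Fibroblast and matrix markers were mostly on the other side, whereas endothelial markers lay on both sides of the sum. Fibroblast and matrix genes had 4 of 22 tested members below the sum at an unadjusted p under 0.05 and 0 above, with a median of -0.63. Col1a1, the alpha 1 chain of type I collagen, had 250.4 and 256 CPM in the combination, against 559.5 and 461 in JQ1, 1257 and 765 in anti-PD-1 and 1088 and 821 in vehicle. Col1a1 departed by -1.09 ± 0.42. The collagen gene Col3a1 had 30.7 and 42.5 CPM under both agents, 52.8 and 31.03 CPM under JQ1, 116 and 60.8 CPM under anti-PD-1 and 37.6 and 45.6 CPM under vehicle, with a departure of -1.27 ± 0.53, and there the combination overlapped vehicle and JQ1. Sparc, a collagen-binding matrix protein, was at -0.87 ± 0.38 and the fibulin Fbln1 at -2.47 ± 1.10, and Fbln1 was high in the antibody libraries at 13.4 and 3.76 CPM. The summed level of the list was 1365 and 2017 CPM in the combination, 2429 and 2045 in JQ1, 3674 and 2618 in anti-PD-1 and 2739.8 and 2699 in vehicle. With 1 library left out at a time, the median lay between -0.97 (without combination replicate 2) and -0.29 (without JQ1 replicate 1), and the count of members below the sum at that p between 0 (for example without JQ1 replicate 1) and 6 (without combination replicate 2). A ribosomal RNA term gave a median of -1.31. The endothelial list had a median of -0.11 and 1 of 24 members below the sum at that p, the adrenomedullin co-receptor Ramp2, with 7.58 and 11.04 CPM in the combination libraries, 13.5 and 13.2 in the JQ1 libraries, 22 and 20.4 in the anti-PD-1 libraries and 8.63 and 11.5 in the vehicle libraries. The departure of Ramp2 was -1.57 ± 0.48.

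Muscle genes had negative departures in all 10 tested members, with a median of -0.95, and 2 had an unadjusted p under 0.05. Myh7 and Myh6, the slow and fast myosin heavy chains of the heart, had 1053 and 595 CPM in the combination, against 2137 and 3387 in JQ1, 3958 and 2924 in anti-PD-1 and 4817 and 3458 in vehicle for Myh7 and 136 and 64.8 CPM under both agents, 242 and 326 CPM under JQ1, 508 and 307 CPM under anti-PD-1 and 524 and 380.1 CPM under vehicle for Myh6. Their departures were -1.48 ± 0.50 and -1.36 ± 0.55, and the combination was below all other libraries for both. With a ribosomal RNA term they were 0.13 and 0.22. The median was -1.40 without anti-PD-1 replicate 2 and -0.44 without anti-PD-1 replicate 1, the extremes over the 8 libraries left out in turn, with 0 members below the sum at that p without JQ1 replicate 2 and 4 without anti-PD-1 replicate 2. Gastrointestinal genes, which lung adenocarcinomas of this kind are known to switch on as they lose lung identity, had 4 of 16 tested members below the sum at that p and 0 above, with a median of -1.08. Gkn2, a gastrokine of the stomach surface, had 34.9 and 14.8 CPM in the combination libraries, 271 and 147 in the JQ1 libraries, 23.1 and 37.4 in the anti-PD-1 libraries and 75.8 and 42.2 in the vehicle libraries. Gkn2 departed by -2.14 ± 0.69. JQ1 alone was above every other group for Gkn2, and the combination overlapped the antibody group. Vil1, the brush border villin, had 10.1 and 9.39 CPM in the combination, against 48.8 and 42.6 in JQ1, 31.99 and 16.7 in anti-PD-1 and 35.4 and 24.7 in vehicle, with a departure of -1.94 ± 0.52, and the endodermal factors Hnf4a and Foxa3 were at -1.24 ± 0.54 and -2.43 ± 0.79. The list medians of 1.98 and 0.76 in JQ1 were above those of 0.28 and 0.47 in the combination. Over the 8 libraries left out in turn, the median ranged from -2.23 without vehicle replicate 1 to -0.55 without JQ1 replicate 1 and the members below the sum at that p from 3 without JQ1 replicate 1 to 7 without JQ1 replicate 2. It was -2.14 with a ribosomal RNA term. Neural-type genes had 4 of 11 members below the sum at that p and 0 above, against 3.57% and 2.68% of all genes, with a median of -0.65. With 1 library left out, the median ran from -2.64 (without combination replicate 2) to -0.50 (without anti-PD-1 replicate 2). It was -1.94 with a ribosomal RNA term and -4.69 for the 7 members tested after thinning. Only 1 member had a mean count of at least 50, and its departure in that fit was 3.58. Nrxn2, a neurexin, had 1.26 and 0.165 CPM under both agents, 0.944 and 1.39 CPM under JQ1, 8.17 and 2.82 CPM under anti-PD-1 and 0.458 and 0.459 CPM under vehicle, with high values under the antibody alone, and Sox11 had 0 and 1.15 CPM in the combination, against 9.02 and 0.610 in JQ1, 1.68 and 2.44 in anti-PD-1 and 0.611 and 0.115 in vehicle, with a high value in 1 JQ1 library. Scg5 had 0 and 1 counts in the combination, 17 and 35 in JQ1, 24 and 24 in anti-PD-1 and 39 and 59 in vehicle, and Ncam1 had 0 and 2 counts in the combination, 41 and 10 in JQ1, 89 and 86 in anti-PD-1 and 76 and 17 in vehicle.

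The immune lists bear on the antibody but held few counts. Of 30 T and NK cell genes 4 could be tested, of which 2, Bcl11b and Zap70, had an unadjusted p under 0.05 below the sum and 0 above. The median of the 4 was -3.39. Without anti-PD-1 replicate 1 the filter was passed by 5 members, and their median was 0.24, so these medians are of different genes. The list held 74 counts in all in the combination, 358 in JQ1, 565 in anti-PD-1 and 547 in vehicle. The T cell receptor component Cd3e had 4 counts in the combination, 7 in JQ1, 27 in anti-PD-1 and 11 in vehicle, and Cd8a had 0 in the combination, 1 in JQ1, 3 in anti-PD-1 and 2 in vehicle, so a departure in Cd3e or Cd8a was not detectable at this depth. Bcl11b, a T cell transcription factor also found in other tissues, had 1 and 0 counts in the combination, 85 and 28 in JQ1, 97 and 40 in anti-PD-1 and 60 and 129 in vehicle. The kinase Zap70 had 0 and 3 counts in the combination, 9 and 4 in JQ1, 15 and 3 in anti-PD-1 and 0 and 0 in vehicle. With so few counts in the combination, the sizes of their fitted departures are not given, and both were negative in all 16 library choices. Zap70 passed the filter on low counts only through JQ1 replicate 1 and anti-PD-1 replicate 1. A gene that enters through single-agent libraries alone tends to fall below the sum, so the sign of Zap70 is no support for a departure. B and plasma cell genes had 2 of 7 tested members below the sum at an unadjusted p under 0.05. Igkc, the kappa light chain constant region, had 0.421 and 2.97 CPM in the combination, against 7.45 and 3.31 in JQ1, 70.2 and 9.95 in anti-PD-1 and 2.67 and 2.87 in vehicle, and anti-PD-1 replicate 1 was the highest library. Its departure was -5.25 ± 1.38, called by DESeq2 at an adjusted p of 0.00177. Ighg2b, an immunoglobulin heavy chain constant region, had 0 and 0 counts in the combination, 3 and 1 in JQ1, 85 and 16 in anti-PD-1 and 4 and 2 in vehicle. Ighg2b passed the filter on low counts only through its anti-PD-1 libraries. Such an entry by itself favours a value below the sum, so Ighg2b is no support for a departure of this list.

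Type I interferon response genes had positive departures in 15 of 17 tested members, with a median of 0.46, but 0 at an unadjusted p under 0.05 in either direction. Interferon gamma response genes had a median of 0.68 with 11 of 13 positive and likewise 0 at that p, and without combination replicate 2 their median was -0.20. With a ribosomal RNA term the medians were -0.77 and -2.20. The MHC class I list was at a median of -0.08, with 2 of 20 below the sum, the chaperone Pdia3 at -0.85 ± 0.33 and H2-M3 at -1.38 ± 0.58, and the class II list was at -0.11, with 0 of 11 at that p. Both were lower without combination replicate 2, where the class I median was -0.55, and the class II median -1.43 with 4 members below at that p. The medians of both with a ribosomal RNA term were -1.93 with 5 below and -4.10 with 5 below. Cd274, which encodes the PD-1 ligand PD-L1, had 2.95 and 0.824 CPM in the combination, against 1.57 and 1.66 in JQ1, 1.89 and 1.13 in anti-PD-1 and 1.53 and 1.61 in vehicle, and its departure of 0.099 ± 0.98 was within its error. Of the acute phase list 1 of 14 members was above the sum, the orosomucoid Orm1, with 8.42 and 43.3 CPM under both agents, 3.78 and 4.27 CPM under JQ1, 1.82 and 1.502 CPM under anti-PD-1 and 5.804 and 1.61 CPM under vehicle. The departure of Orm1 was 3.85 ± 1.10. The neutrophil list, with 7 tested members, and the NF-kB feedback list, with 14, had 0 at that p.

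The direct machinery of JQ1 showed little beyond its spread. BET and P-TEFb genes had a median of -0.13, with 1 of 18 tested members below the sum at an unadjusted p under 0.05 and 0 above. That member was Mepce, the 7SK capping enzyme, with 18.1 and 20.8 CPM in the combination, against 27.4 and 40.6 in JQ1, 48.4 and 41.3 in anti-PD-1 and 43.6 and 38.3 in vehicle. Mepce departed by -0.93 ± 0.42. Hexim1, the P-TEFb inhibitor used as a marker of BET inhibition, had 26.1 and 9.23 CPM under both agents, 29.8 and 19.1 CPM under JQ1, 47.4 and 43.1 CPM under anti-PD-1 and 46.05 and 29.4 CPM under vehicle. The departure of Hexim1 was -0.78 ± 0.64. Brd2 had 189 and 194 CPM in the combination libraries, 165 and 225 in the JQ1 libraries, 359 and 395 in the anti-PD-1 libraries and 327 and 295 in the vehicle libraries. Brd2 departed by -0.299 ± 0.35. Its expected and measured values were closer than the error.

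The MYC family diverged by member. Myc had 15.99 and 7.75 CPM in the combination, against 25.7 and 23.7 in JQ1, 17.04 and 19.3 in anti-PD-1 and 19.8 and 16.7 in vehicle. Myc departed by -1.097 ± 0.52. JQ1 alone was above vehicle in both libraries, whereas the combination was below vehicle in both. Mycn had 5.05 and 0.659 CPM under both agents, 18.98 and 40.3 CPM under JQ1, 73.3 and 42.1 CPM under anti-PD-1 and 45.5 and 62.02 CPM under vehicle, with a departure of -3.81 ± 0.97, and DESeq2 called it at an adjusted p of 0.00795. Mycl was on the other side, with 5.89 and 11.5 CPM in the combination libraries, 1.57 and 1.22 in the JQ1 libraries, 1.12 and 1.69 in the anti-PD-1 libraries and 1.45 and 0.861 in the vehicle libraries. The departure of Mycl was 2.39 ± 0.78. These 3 paralogs each encode a partner of Max, and the list of 11 tested members had a median of 0.14.

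Outputs of the MAPK pathway, a growth signalling cascade, were also split. Of 19 tested members 2 were above the sum at an unadjusted p under 0.05 and 1 below, with a median of -0.32. Phlda1 had 20.6 and 9.39 CPM in the combination, against 55.3 and 34.5 in JQ1, 63.2 and 80.7 in anti-PD-1 and 65.2 and 69.8 in vehicle. Phlda1 departed by -1.72 ± 0.54. Ier3, an early response gene, had 9.68 and 22.6 CPM under both agents, 3.78 and 5.06 CPM under JQ1, 5.94 and 7.42 CPM under anti-PD-1 and 4.81 and 9.18 CPM under vehicle, at 1.97 ± 0.68, and the ERK phosphatase Dusp4 had 20.2 and 17.1 CPM in the combination libraries, 13.4 and 16.2 in the JQ1 libraries, 8.52 and 10.05 in the anti-PD-1 libraries and 17.5 and 14 in the vehicle libraries, at 1.09 ± 0.46. The tumour suppressor Trp53 was at -0.0018 ± 0.76. Trp53 had 4.63 and 2.14 CPM in the combination, against 3.57 and 3.57 in JQ1, 2.096 and 2.16 in anti-PD-1 and 1.99 and 2.75 in vehicle. Among immediate early genes 2 of 25 were below the sum at that p and 0 above. They were Cyr61, a matricellular protein of the YAP pathway, with 7.15 and 15.5 CPM in the combination, against 26.8 and 38.4 in JQ1, 71.5 and 57.8 in anti-PD-1 and 47.7 and 71.3 in vehicle and a departure of -1.59 ± 0.54, and Egr3, with 1 and 2 counts in the combination, 22 and 8 in JQ1, 84 and 18 in anti-PD-1 and 10 and 20 in vehicle. Of 18 p53 target genes 1 was above the sum, the desmosomal protein gene Perp, with 25.7 and 45.2 CPM under both agents, 6.08 and 8.63 CPM under JQ1, 9.43 and 8.83 CPM under anti-PD-1 and 10.1 and 5.39 CPM under vehicle. The departure of Perp was 2.03 ± 0.59. Cdkn1a, which encodes the cell cycle inhibitor p21, had 4.63 and 70.04 CPM in the combination libraries, 6.19 and 10.02 in the JQ1 libraries, 8.94 and 6.95 in the anti-PD-1 libraries and 5.42 and 4.82 in the vehicle libraries, so its departure of 1.601 ± 1.27 rests on combination replicate 2, without which it was -1.47.

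Stress and fuel lists held single genes on either side. Heat shock chaperones had 2 of 20 members above the sum at an unadjusted p under 0.05 and 0 below. They were Hspb8, with 14.7 and 22.1 CPM in the combination, against 6.502 and 7.41 in JQ1, 3.56 and 5.26 in anti-PD-1 and 9.01 and 5.16 in vehicle and a departure of 2.101 ± 0.59, and Hspa4l, at 0.92 ± 0.42. The ATF4 and unfolded protein list had 2 of 26 above and 3 below. Slc7a11 was above, while Phgdh, the first enzyme of serine synthesis, had 6.73 and 14.2 CPM under both agents, 33.4 and 28.8 CPM under JQ1, 22.5 and 27.7 CPM under anti-PD-1 and 17.9 and 26.3 CPM under vehicle. Phgdh departed by -1.701 ± 0.53. The seryl-tRNA synthetase Sars was at -0.999 ± 0.38 and the secreted factor Manf at -1.13 ± 0.43. Fatty acid oxidation genes had 2 of 20 above and 1 below. Ppargc1a, the coactivator of mitochondrial genes, had 73.7 and 51.3 CPM in the combination, against 20.3 and 4.88 in JQ1, 43.4 and 29.4 in anti-PD-1 and 48.6 and 27.4 in vehicle, with a departure of 2.37 ± 0.83, and Ucp3 had a departure of 3.29 ± 1.21. JQ1 alone was lower than the other groups for Ppargc1a and both combination libraries were above all others. Glycolysis and epithelial-mesenchymal transition genes had 0 of 24 and 0 of 19 at that p, as did alveolar type 1 markers with 0 of 12. The glycolysis median of 0.15 was 0.61 without combination replicate 1, with 4 members above at that p, and -0.51 without combination replicate 2. In the fit with a ribosomal RNA term it was -1.14, and the epithelial-mesenchymal list was at -1.91 with 8 members below at that p.

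The scale on which effects are added changed the sign for 3 of the 108 genes named, Trp53, Scgb1a1 and Hist1h2ae. Scgb1a1, which encodes the club cell secretory protein, had 305 and 244 CPM in the combination, against 77.9 and 22.5 in JQ1, 87.3 and 21.2 in anti-PD-1 and 5.35 and 3.5 in vehicle. The fold changes multiplied to 616 CPM and the differences added to 100.1 CPM, so the combination mean of 275 CPM was below the product and above the sum. Its departure was -1.17 ± 1.03. Sox2, a transcription factor of the airway epithelium, had 94 and 117 counts in the combination, 22 and 0 in JQ1, 63 and 8 in anti-PD-1 and 0 and 3 in vehicle, and with 3 counts in vehicle its departure is no measure of size. Actb, the beta-actin used as a reference gene, had 7128 and 10889 CPM under both agents, 12207 and 13999 CPM under JQ1, 18269 and 23305 CPM under anti-PD-1 and 23855 and 23326 CPM under vehicle. The departure of Actb was -0.36 ± 0.40.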

How the data were processed

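RNA from frozen lung tumour nodules was made into 8 libraries by probe capture of coding regions, per the labels' protocols. The submitters' processing notes name bcl2fastq, STAR, featureCounts and DESeq2 and the builds mm10 and GRCm38; versions, annotation and use of strand are left unstated there. The deposited table analysed holds raw read counts per gene symbol, with no normalization. A second deposited table, of normalized values, was not used. Labels gave each library its group, and replicates were numbered in accession order.

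Of 52459 symbols, 26033 had no count in any library and 14085 passed filterByExpr. The double difference was tested with edgeR 4.0.16 (robust glmQLFit, glmQLFTest) in 1 fit of all 8 libraries with TMM factors and 4 residual degrees of freedom, with Benjamini-Hochberg adjustment over all genes tested. The biological coefficient of variation was 0.332, which sets the precision with 2 libraries a group. Alternatives were other factors, filters, DESeq2 1.42.0, voom and trend of limma 3.58.1, terms for sex or ribosomal RNA share, thinning to 2719816 counts, and each library left out. Products were taken from group mean CPM, and list medians from log2(CPM + 0.5). Of the tested symbols, 13813 had an entry in GENCODE vM21 (GRCm38, coordinates 1-based) and 9963 a RefSeq promoter (GRCm38.p6).

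Named genes were the 10 of smallest p in each direction with a mean log2 CPM of at least 1 and 1 sign in all 16 library choices, leaving out predicted genes, immune receptor segments, Xist and Y-linked genes. Up to 4 members of a list with an unadjusted p under 0.05, and a fixed set of genes, were added, and 13 more after values were seen, which are mentioned as such. Other list members given only with a departure, such as Ciart, Gclc, Keap1 and Pcna, were chosen outside this rule. They are not among the 108 named genes that were compared between scales and alternatives. Among the genes so chosen, 5 are not reported here. The 39 lists and the comparison were chosen with earlier results of these data known, and no set test was run.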

Additional observations from a re-analysis of the deposited data

Results flagged for a closer look

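In 15 of the genes named, both combination libraries lay on the opposite side of both antibody libraries from the side that both JQ1 libraries took relative to both vehicle libraries, so that JQ1 moved the gene one way without the antibody and the other way with it. Over all genes with more than 3 counts in every group, 340 of 13542 (2.51%) did so. Most of the 15 were named by their p for the departure, a choice that favours such opposite moves. The difference between these effects is the departure itself, and in none of the 15 did it pass edgeR's test, in which the smallest adjusted p was 0.745.

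JQ1 was lower than vehicle alone and higher with the antibody for Pgd (departure 1.66), Fetub (3.09), Sftpd (1.78), Marco (3.603), Nr1d2 (1.04) and Ppargc1a (2.37). It was higher than vehicle alone, or level with it at the lower end, and lower with the antibody for Hbegf (-2.13), Myc (-1.097), Vil1 (-1.94), Foxa3 (-2.43), Ramp2 (-1.57), Pole (-1.996), Phgdh (-1.701), Nrxn2 (-4.68) and Antxr1 (-2.46). For Antxr1 the JQ1 and vehicle libraries differed least, with 49.8 and 55.3 CPM in JQ1 and 49.8 and 49.8 CPM in vehicle. For Sftpd, by the values given above, the higher JQ1 library was nearly level with the lower vehicle library. Marco rests on 20 counts in the combination and 15 in JQ1. Nrxn2 rests on few counts as well, since its combination, JQ1 and vehicle levels given above are near the floor.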

How the results depend on the processing

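No paired analysis was possible because the labels carry no replicate numbers that groups share. With no filter, 138 of 26426 genes were called, 44 above and 94 below the sum, and 1579 had an unadjusted p under 0.05. DESeq2 called 16, 5 above and 11 below. A ribosomal RNA term gave 1 call, Porcn, below. Counts at an unadjusted p under 0.05 were 582 of 8576 genes with a mean count of at least 50 and 517 of 11032 after thinning. Leaving out 1 library gave 0 to 1 calls (0 to 1 above, and 0 below; the 1 without JQ1 replicate 1) and 536 to 1660 genes at that p, with 1660 without combination replicate 1, 536 without vehicle replicate 1 and 584 without vehicle replicate 2. RLE and upper-quartile factors, voom, trend, the sex term and removal of ribosomal RNA genes called 0 each. Of 2019 values of named genes under 19 alternatives, 1939 kept direction and side of the threshold, 50 passed it, all without a filter or in DESeq2, and 30 turned sign. With the ribosomal RNA term, the values that turned were Brd2 0.16, Trp53 1.15, Sox2 -0.90, Klf15 -0.28, Cdkn1a -1.88, Hc -1.07, Myh7 0.13, Myh6 0.22, Ly6c2 -0.94, Insig1 -0.18, Sars 0.011, Sftpc -1.57 and Nkx2-1 0.67. The same term turned the medians of 16 of 39 lists, which were alveolar type 2 (-1.35), alveolar type 1 (0.14), type I interferon response (-0.77), interferon gamma response GTPases and chemokines (-2.20), acute phase and complement (-2.93), BET and P-TEFb (0.14), MYC family and partners (-0.17), MAPK output (0.53), p53 targets (-0.87), circadian clock (-0.35), glucocorticoid targets (-0.27), fasting and fatty acid oxidation (-0.17), cholesterol and fatty acid synthesis (-0.32), glycolysis and hypoxia (-1.14), heat shock chaperones (0.33) and oxidative phosphorylation (-1.18). DESeq2 turned Trp53 (0.0018) and Sox2 (-0.17), voom Cd274 (-0.27), the sex term Trp53 (0.13) and thinning Sox2 (-2.31). Leaving out 1 library at a time gave Trp53 -0.57 to 0.50, Cd274 -0.91 to 0.88, Scgb1a1 -1.87 to 0.17, Sox2 -2.99 to 6.65, Cdkn1a -1.47 to 2.47 and Bpifa1 -2.05 to 10.74. It turned the median of 24 of the 39 lists for at least 1 library (14 without combination replicate 2, 9 without JQ1 replicate 1), with ranges of -1.58 to 0.73 (airway secretory and ciliated), -0.26 to 0.13 (alveolar type 1), -0.46 to 0.11 (endothelium), -0.71 to 0.73 (alveolar macrophage), -2.21 to 0.31 (neutrophil), -3.36 to 0.24 (T and NK cell), -0.20 to 1.599 (interferon gamma response GTPases and chemokines), -0.55 to 0.54 (MHC class I presentation), -1.43 to 0.46 (MHC class II presentation), -0.77 to 0.98 (acute phase and complement), -0.57 to 0.36 (NF-kB feedback), -1.71 to 0.33 (mitosis), -0.27 to 0.21 (BET and P-TEFb), -0.36 to 0.13 (MYC family and partners), -0.55 to 0.053 (MAPK output), -0.11 to 0.40 (AP-1 and immediate early), -0.13 to 0.52 (p53 targets), -0.090 to 1.32 (glucocorticoid targets), -0.31 to 0.22 (fasting and fatty acid oxidation), -0.51 to 0.61 (glycolysis and hypoxia), -0.42 to 0.11 (heat shock chaperones), -0.62 to 0.044 (epithelial-mesenchymal transition), -0.57 to 0.11 (cytosolic ribosomal protein) and -0.24 to 0.52 (oxidative phosphorylation). Turns of sign of genes came without combination replicate 1 for Cd274, Sox2 and Bpifa1, replicate 2 for Trp53 and Cdkn1a, JQ1 replicate 2 for Sox2, anti-PD-1 replicate 1 for Scgb1a1, anti-PD-1 replicate 2 for Trp53, Cd274 and Sox2, and vehicle libraries for Trp53 and Sox2. The filter was run again for each library left out, so the tested members of a list could change. The ranges of the T and NK cell and the MYC lists therefore do not hold their main medians of -3.39 and 0.14. The causes were not tested. With 2 libraries a group and 2719816 counts in the shallowest, departures of genes with few counts are the least certain.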
